A study of Drosophila melanogaster with 2 samples.

Results

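Among the 3207 Mes4-GFP peaks of the authors' optimal list, 612 (19.1%) were single-gene promoter peaks whose summit stood off the transcription start site (TSS). A peak was taken when its summit lay within 500 bp of annotated TSSs of exactly 1 gene and the nearest of these TSSs was 101 to 500 bp away. Of the 612 peaks, 481 had their summit upstream of the nearest TSS and 131 had it downstream, read in the direction of transcription. They belonged to 568 genes. They made up 59.8% of the 1023 peaks that lay near the TSSs of 1 gene only. The remaining 411 of those, with a summit at most 100 bp from the TSS, are called centred below and serve as the comparison.

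Mes4 is a Drosophila gene distinct from Mes-4, which encodes a histone H3 lysine methyltransferase. A TSS is where RNA polymerase II begins a transcript, and in flies core promoter elements such as the Initiator lie on it, while other regulatory DNA lies upstream or in the first intron. The DNA replication-related element (DRE) and Motif 1 mark many promoters of broadly active genes, and BEAF-32 is an insulator protein that recognises CGATA. The TATA box is a core promoter element when it stands just upstream of a TSS, but its letters also occur by base composition in AT-rich DNA.

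Chromatin came from whole Drosophila melanogaster embryos of mixed sex, aged 0 to 16 h, from 1 transgenic line that carries Mes4 fused at its C terminus to green fluorescent protein (GFP). Sonication gave fragments of 200 to 800 bp, and the fusion protein was pulled down through its GFP. The 2 samples, biological replicates 3 and 4, form 1 group and share a control, and no untagged line or other antibody was analysed here, so there is no contrast between conditions. A relaxed list of 30000 peaks was deposited for each replicate and for the pooled reads. Read counts are not in these lists, so depth is unknown and the intervals below (95%, Wilson) cover only the counting of peaks.

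Stretches of 101 bases, 50 to each side of the summit, show the AT-rich sequence that most upstream summits sit in. The upstream examples are 2 of the strongest peaks whose stretch holds no exon base, and the downstream examples were chosen the same way. They were read from the RefSeq Release 6 (dm6) genome in the direction of each gene, and capitals mark the letters TATAAA or their reverse complement. The ph-p stretch is chrX:2137291-2137391 on the minus strand, in an intron of ph-p and 486 bp upstream of its nearest TSS. The CG31145 stretch is chr3R:23669797-23669897 on the minus strand, intergenic and 188 bp upstream. The downstream stretches lie in introns, rudhira at chrX:11818538-11818638 on the plus strand, 251 bp past its TSS, and CG31612 at chr2L:21794948-21795048 on the minus strand, 449 bp past its TSS.
ph-p: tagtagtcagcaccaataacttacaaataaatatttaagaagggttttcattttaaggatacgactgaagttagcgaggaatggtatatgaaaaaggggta
CG31145: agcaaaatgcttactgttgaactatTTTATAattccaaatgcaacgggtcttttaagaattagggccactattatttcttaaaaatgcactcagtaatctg
rudhira: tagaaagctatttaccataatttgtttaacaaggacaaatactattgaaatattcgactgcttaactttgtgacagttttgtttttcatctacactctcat
CG31612: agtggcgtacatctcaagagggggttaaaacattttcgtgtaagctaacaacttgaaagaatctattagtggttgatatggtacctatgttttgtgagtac
Their GC content was 32.7% for ph-p, 31.7% for CG31145, 28.7% for rudhira and 37.6% for CG31612.

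Upstream summits thinned out with distance from the TSS. Of the 481, 200 lay 101 to 200 bp away, 136 lay 201 to 300 bp, 87 lay 301 to 400 bp and 58 lay 401 to 500 bp away, with a median of 223 bp. Downstream summits did not fall off in that way. Of the 131, 53 lay 101 to 200 bp past the TSS, 20 lay 201 to 300 bp, 27 lay 301 to 400 bp and 31 lay 401 to 500 bp past it, with a median of 244 bp. In bins of 50 bp the downstream count went down to 6 peaks between 250 and 300 bp and 7 between 300 and 350 bp, and stood at 20 between 350 and 400 bp. This second group of downstream summits was noticed in these counts and was not tested.

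**Figure D1:**
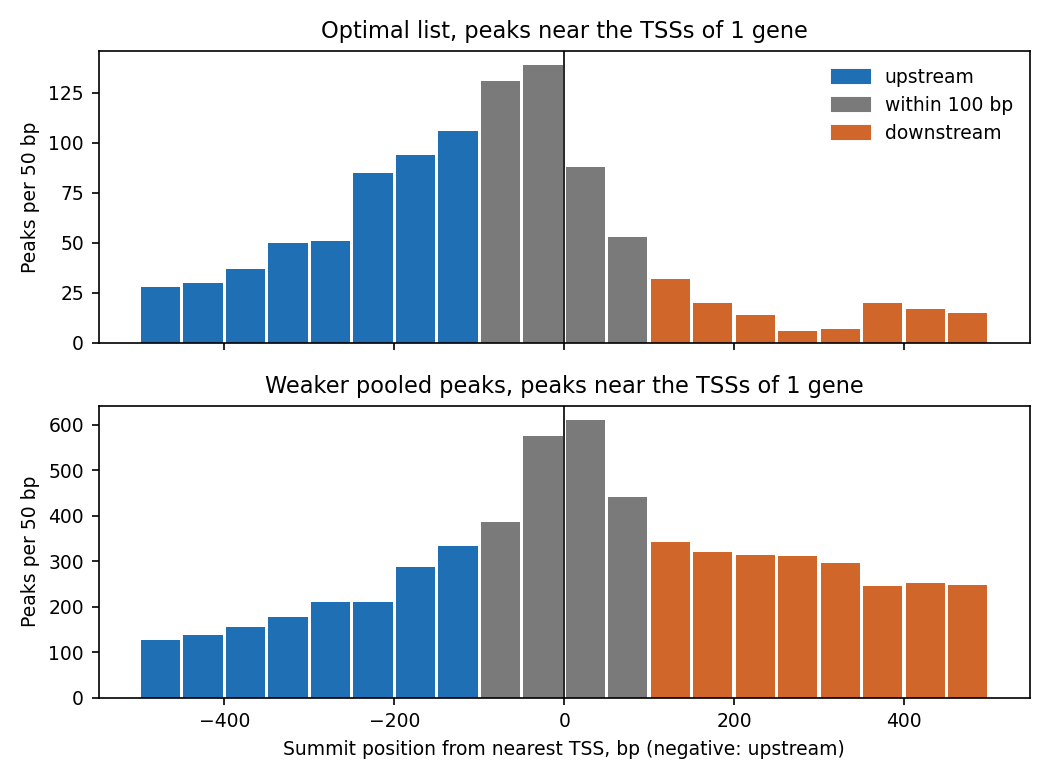
Number of peaks per 50 bp (y axis) by summit position from the nearest TSS in bp (x axis, negative upstream) for peaks near the TSSs of 1 gene, in the optimal list (top) and among weaker pooled peaks (bottom). Blue bars are upstream, orange downstream and grey within 100 bp; the optimal list holds 481 upstream and 131 downstream summits, the weaker peaks more downstream than upstream.

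The lean towards upstream set these peaks apart from the weaker entries of the pooled list. The authors label that list as peaks and background, so its weaker entries can include background. Downstream summits made up 21.4% of the 612 (18.3 to 24.8%). Centred peaks leaned upstream too. From 100 bp upstream to 100 bp past the TSS, their counts per 50 bp were 131, 139, 88 and 53. Among the 26045 pooled peaks that no optimal peak overlaps, 3967 met the same rule on distance and gene, and 2325 of those (58.6%, 57.1 to 60.1%) were downstream. The difference of 37.2 percentage points had an adjusted p of 1.157e-67 in Fisher's two-sided exact test (Benjamini-Hochberg over 6 comparisons). Peaks are not replicates, so this p and the others below describe the deposited lists and not the spread between embryos. The weaker downstream summits also differed in where they lay, with 42.7% in coding exons against 5.34% of the 131, and in GC content, with a median of 50.5% against 38.6%. The part of these differences in the result was not tested.

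The strongest upstream peaks ranked among the strongest of the whole list. The peak at px, a gene named for the wing veins it patterns, ranked 2 in the pooled list, with a signal of 924 in replicate 3 and 676 in replicate 4, and it was rank 2 in both. Its summit lay 194 bp upstream of a px TSS, inside a px intron. The peak in ph-p, which encodes a Polyhomeotic subunit of Polycomb repressive complex 1, had signals of 634 and 441 in replicates 3 and 4 and was rank 10 in both. Both peaks had the same rank in replicate 3 as in replicate 4.

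CG1888 had signals of 659 and 501 in replicates 3 and 4 (ranks 8 and 5), and CG31145 had 492 and 389 (ranks 24 and 16). CG18549 had 534 and 282 (ranks 17 and 39). Its pooled summit was 109 bp upstream, but its replicate summits were 99 and 78 bp upstream, inside the 100 bp limit of centred peaks. At larp, which encodes a La-related RNA-binding protein, the signals were 450 and 306 (ranks 30 and 32). Sox14, a transcription factor gene of the Sox family, had 378 and 330 (ranks 44 and 22), and its summit was intergenic. Fkbp14, for a peptidyl-prolyl isomerase of the endoplasmic reticulum, had 418 and 242 (ranks 36 and 59), with its replicate 4 summit 99 bp upstream. Rtnl1, the reticulon gene that shapes the same organelle, had 350 and 261 (ranks 55 and 48). The noncoding RNA genes lncRNA:CR44619 and lncRNA:CR31044 were also among the 12 strongest upstream peaks, at pooled ranks 18 and 49. The summit assigned upstream to lncRNA:CR44619 lay in a noncoding exon of lncRNA:Vinr.

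The 100 strongest peaks of the list held 2 of the 131 downstream peaks (1.53%, 0.420 to 5.396%). They held 19 of the 481 upstream ones (3.95%, 2.54 to 6.09%) and 13 of the 411 centred ones (3.16%, 1.86 to 5.34%). All these intervals overlapped. The strongest downstream peak was again at lncRNA:CR44619, 487 bp past its TSS. Its signals were 405 and 296 in replicates 3 and 4 (ranks 39 and 34). This gene had 1 strong peak on each side of its single TSS, at chrX:12751168-12751642 and chrX:12752203-12752525 on the plus strand, with summits 958 bp apart. The second, in an intron of tank at chr2L:4837724-4838012 on the minus strand, had signals of 423 and 246 (ranks 34 and 57). The next, at rudhira, the fly homologue of the cytoskeletal protein BCAS3, had 239 and 157 (ranks 158 and 171). In bgcn, a gene of germ cell differentiation, the summit lay in the 5' UTR and the signals were 229 and 140 (ranks 179 and 227).

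The receptor tyrosine phosphatase gene Ptp4E had downstream signals of 166 and 131 in replicates 3 and 4 (ranks 373 and 275). The forkhead factor gene CHES-1-like had 154 and 142 (ranks 438 and 217), and bchs, whose BEACH-domain protein acts in autophagy, had 145 and 132 (ranks 496 and 264). All 3 stood higher in replicate 4 than in replicate 3. The other 5 of the 12 strongest downstream peaks were at lncRNA:CR44380, CG12316, lncRNA:CR46102, CG31612 and lncRNA:CR44917, at pooled ranks 169, 188, 191, 241 and 305. Noncoding RNA genes thus held 4 of the 12, beside 29 of all 131 downstream peaks.

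Over all members, the median signal was 154 for upstream peaks (interquartile range 144) and 123 for downstream peaks (81.7), against 115.4 for centred peaks (62.0) and 127 for the whole list (89.6). The strongest 1603 peaks held 364 of the 612 offset peaks (59.5%, 55.5 to 63.3%) and 158 of the 411 centred ones (38.4%, 33.9 to 43.2%). The odds ratio was 2.35, with an adjusted p of 1.305e-10 in Fisher's exact test. Within the offset peaks, 301 of 481 upstream (62.6%) and 63 of 131 downstream (48.1%) were among them, with an odds ratio of 1.81 and an adjusted p of 0.005278 in the same exact test. With the list cut into 4 equal parts, from the strongest to the weakest, upstream peaks made up 22.6%, 14.96%, 11.97% and 10.5%. Downstream peaks made up 3.37%, 4.49%, 3.49% and 4.99%, and their intervals overlapped.

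**Figure D2:**
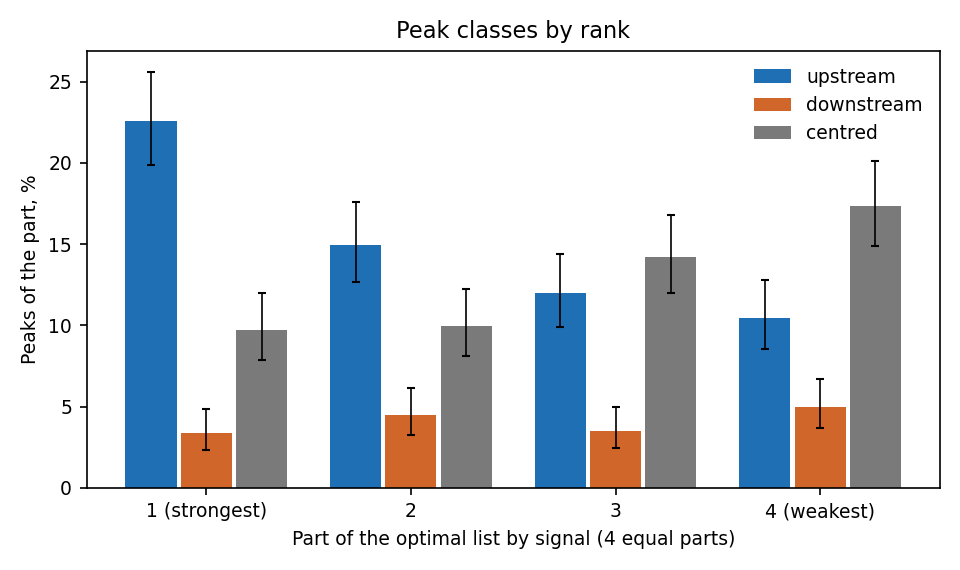
Share of the peaks in each of 4 equal parts of the optimal list, in percent (y axis), that were upstream, downstream or centred, with the parts ordered by signal (x axis) and whiskers for the 95% Wilson interval. The upstream share goes from 22.6% in the strongest part to 10.5% in the weakest, while the centred share goes from 9.74% to 17.3%.

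Both replicates held most of these peaks. The optimal list came from these same replicates through a reproducibility procedure, so a high share in both can follow in part from that selection. A peak was counted in both when each replicate had a summit within 200 bp that ranked among that replicate's own 3207 strongest. That was so for 470 of the 612 offset peaks (76.8%) and 261 of the 411 centred ones (63.5%), beside 72.8% of the whole optimal list. The odds ratio was 1.90 and the adjusted p 1.158e-05 in Fisher's exact test. Of upstream peaks 382 (79.4%) and of downstream peaks 88 (67.2%) were in both, with an odds ratio of 1.89 and an adjusted p of 0.005853 in the exact test. Within the strongest 1603 peaks neither difference passed: offset minus centred was -0.741 percentage points (adjusted p = 0.897, Fisher's exact test) and upstream minus downstream 0.258 (adjusted p = 1, Fisher's exact test). Counting only summits over 150 bp from the TSS as offset, upstream minus downstream was 8.88 percentage points, with an adjusted p of 0.0804 in the exact test.

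The side of the TSS was shared by the replicates. The median difference between the 2 replicates' summit positions was 19 bp for upstream and 27 bp for downstream peaks. In 478 of 481 upstream and 130 of 131 downstream peaks both replicates had their summit on the same side as the pooled one, 99.3% of the 612. A replicate summit was sought within 200 bp of the pooled summit, so a summit farther than that from its TSS could not change sides. Among the 253 members within 200 bp of the TSS, 250 kept their side in both replicates. The exceptions were CycG downstream, whose replicate 3 summit lay 57 bp upstream, and upstream yip2 and spn-B, whose replicate 4 summits lay 6 and 3 bp past the TSS. At RapGAP1, 1 of 2 peaks had no replicate 4 summit in reach. These 4 were named after their values were seen. A stricter condition, over 100 and up to 500 bp on the same side in both replicates, was met by 551 of the 612 (90.0%).

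**Figure D3:**
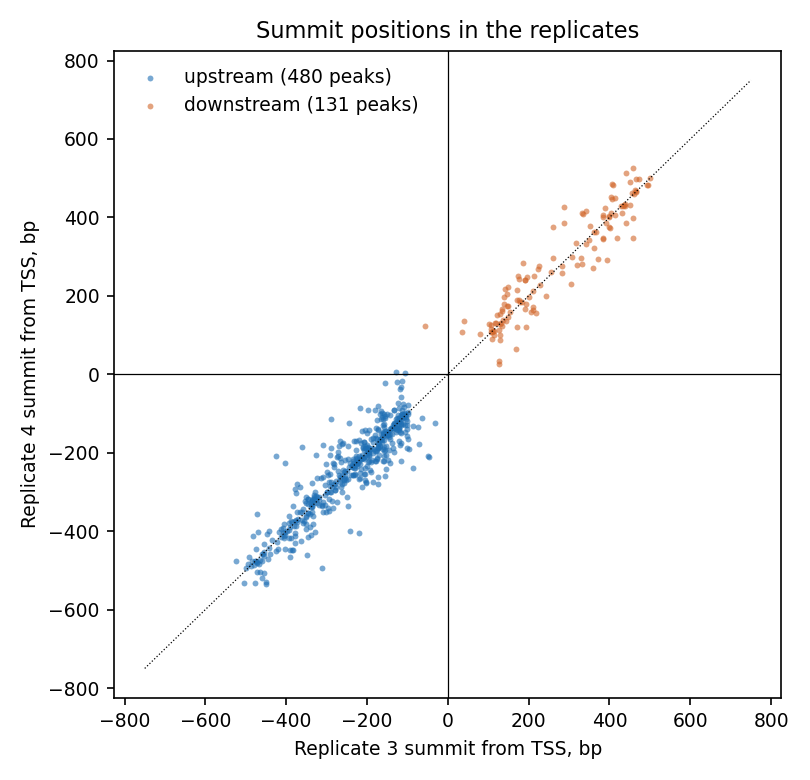
Summit position from the TSS in replicate 3 (x axis, bp) and replicate 4 (y axis, bp) for each upstream (blue, 480 peaks) and downstream (orange, 131 peaks) peak with a summit in both; the dotted line marks equal positions. Points lie along the line, with 3 crossing to the other side of the TSS in 1 replicate.

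A summit of the pooled relaxed list within 100 bp of the same TSS was found for 52 of 481 upstream peaks (10.8%) and 12 of 131 downstream peaks (9.16%). No summits of that list lay closer together than 199 bp, which leaves little room for a second summit at the TSS of a member near it. Among members over 300 bp from the TSS, where that spacing leaves room, a summit at the TSS was found for 1 of 145 upstream and 1 of 58 downstream peaks. The interval of the peak itself covered the TSS for 166 upstream peaks (34.5%) and 51 downstream ones (38.9%). That difference of -4.42 percentage points did not pass Fisher's exact test (adjusted p = 0.355). With summits up to 300 bp away it was -14.8 points (adjusted p = 0.0130) and with summits from over 50 bp it was -8.65 points (adjusted p = 0.0437), both by the exact test. With summits over 150 bp away it was 1.15 points and in replicate 4 alone 2.82 points, neither past the threshold. Coverage depends on distance by construction, and 157 of the 166 upstream peaks that covered the TSS lay 101 to 200 bp from it.

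Annotation placed the upstream and downstream summits in different parts of the gene. Upstream, 244 of 481 summits (50.7%) were intergenic and 198 (41.2%) intronic, and 182 (37.8%) lay inside another transcript of the same gene, since their nearest TSS was an internal one. Of the 198 intronic summits, 158 lay in the gene the peak was assigned to. A transcript of another gene held 68 upstream summits (14.1%) and 23 downstream ones (17.6%). Of the 281 upstream peaks at genes with several TSSs, 99 were nearest to the most 5' one. Downstream, 50 of 131 summits (38.2%) were intronic, 48 (36.6%) were in a 5' UTR and 7 in a coding exon. Of the 98 downstream summits at protein-coding genes, 74 stood before the start codon of the transcript. The downstream intron summits were more frequent far from the TSS: 12 of 53 at 101 to 200 bp and 18 of 31 at 401 to 500 bp were intronic, whereas 31 of 53 and 3 of 31 were in a 5' UTR. Genes of noncoding RNA held 29 downstream peaks (22.1%, 15.9 to 29.98%), 34 upstream peaks (7.07%, 5.10 to 9.72%) and 17 centred ones (4.14%, 2.60 to 6.52%). Of the 18164 annotated genes, 3261 were of long noncoding RNA. A downstream peak was found at 0.889% of these, near the 0.716% of all genes. An upstream peak was found at 1.01% of them, below the 2.46% of all genes.

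Upstream summits were lower in GC content than centred ones. In the 101 bases around the summit its median was 34.7% for upstream peaks (interquartile range 11.9) and 38.6% for downstream peaks (12.4), against 46.5% for centred peaks (11.9) and 36.6% for the whole list. It lay under 30% in 157 upstream (32.6%), 22 downstream (16.8%) and 32 centred peaks (7.79%), beside 786 of the whole list (24.5%). Upstream summits were also compared with the mirror position, equally far from the TSS on its other side. The summit was lower in GC than its mirror in 360 of 481 upstream peaks (74.8%) and in 66 of 131 downstream peaks (50.4%). Weaker pooled peaks upstream by the same rule had a median of 41.6%. DNA upstream of centred genes was just as low: 223 bp upstream of their TSS, the median distance of the upstream members, it was 33.7%.

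**Figure D4:**
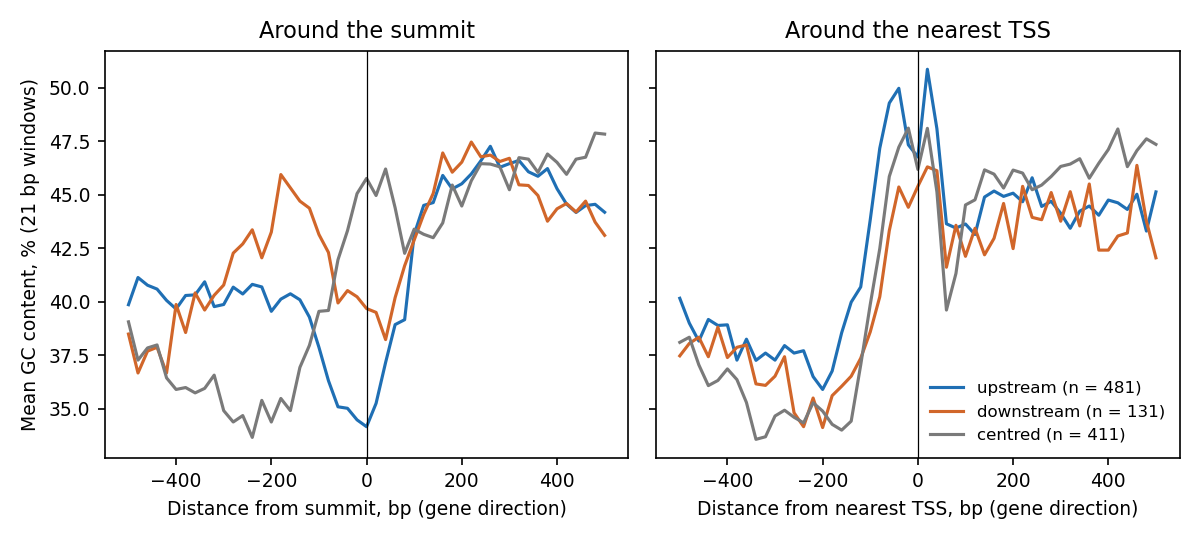
Mean GC content in percent, in 21 bp windows (y axis), by distance in bp from the summit (left) or the nearest TSS (right) in the direction of the gene, for 481 upstream, 131 downstream and 411 centred peaks. Upstream summits sit at a low of 34.2%, and around the TSS all 3 classes are low upstream and higher on the TSS.

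Of 14 short motifs searched on both strands within 50 bp of the summit and of its mirror, the TATA letters TATAAA and the CA repeat CACACACA passed in upstream peaks. TATAAA stood at 93 upstream summits (19.3%) and 32 mirror windows (6.65%), with an adjusted p of 6.726e-08 in an exact McNemar test over 28 motif and side combinations. CACACACA stood at 6 summits (1.25%) and 27 mirror windows (5.61%), adjusted p = 0.004537 by the same exact test. The share over all optimal summits was 16.7% for TATAAA and 1.78% for CACACACA. With windows of 100 bp to each side, DRE (3.12 percentage points more in the summit window, adjusted p = 5.697e-04 by the exact test), Motif 7, the GAGA element and the GATA site passed as well. For the 200 upstream members 101 to 200 bp from the TSS, these wider windows come within 100 bp of it. The wider windows therefore cannot place these motifs at the summit itself. No motif passed among the 131 downstream peaks, where TATAAA stood at 16 summits (12.2%) and 19 mirror windows (14.5%). With the strongest peaks of replicate 4 alone TATAAA passed there, at -11.5 percentage points (adjusted p = 0.0239, exact McNemar test). The TATA letters were as common at that distance from the TSS where no offset summit defined the window. They stood in 100 of 411 windows (24.3%, 20.4 to 28.7%) 223 bp upstream of the TSS of a centred peak's gene, beside 19.3% (16.1 to 23.1%) at the upstream summits, and the intervals overlapped. They stood at 209 of 1642 weaker upstream summits (12.7%, 11.2 to 14.4%), which were higher in GC.

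Motifs that mark promoters of broadly active genes were rarer at offset than at centred summits. The DRE, TATCGATA, stood at 5 of 612 offset summits (0.817%) and 20 of 411 centred ones (4.87%), adjusted p = 5.090e-04 in Fisher's exact test over 14 motifs, beside 2.15% of all optimal summits. CGATA, the BEAF-32 core, which the DRE contains, stood at 87 offset (14.2%) and 125 centred summits (30.4%), adjusted p = 8.456e-09 by the exact test, beside 17.3%. Motif 1, GGTCACAC, stood at 3 offset (0.490%) and 16 centred summits (3.89%), adjusted p = 5.090e-04 by the exact test, beside 1.4%. Motif 7, CATCNCTA, stood at 9 offset (1.47%) and 18 centred summits (4.38%), adjusted p = 0.0235 by the exact test, beside 2.09%. TATAAA went the other way, with 109 offset (17.8%) and 38 centred summits (9.25%), adjusted p = 5.090e-04 by the exact test, beside 16.7%. Its offset share was thus near that over all optimal summits. By the same exact test, Motif 1 (adjusted p = 0.0631) and Motif 7 (0.225) did not pass with windows of 25 bp to each side, nor Motif 7 among the strongest 1603 peaks (0.0603), nor TATAAA in replicate 4 alone (0.0769). Centred windows lie on core promoters by their definition and were higher in GC, and the part of either in these differences was not tested. Between upstream and downstream summits none of the 14 motifs passed in Fisher's exact test, and none had an unadjusted p under 0.05, the lowest being 0.0708 for TATAAA. In replicate 4 alone TATAAA passed, 11.3 percentage points more frequent upstream (adjusted p = 0.004583, Fisher's exact test).

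**Figure D5:**
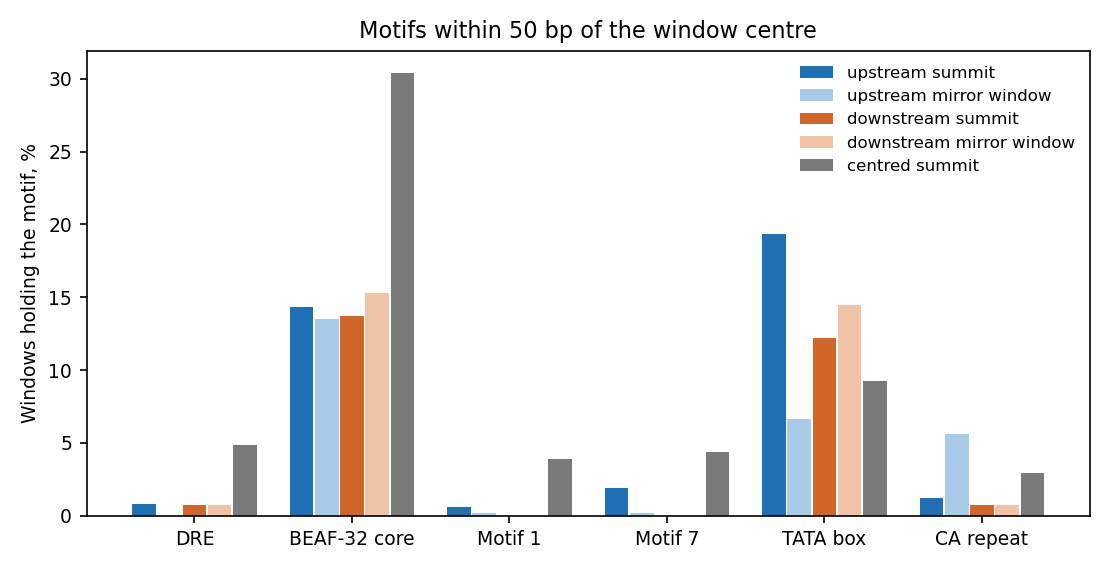
Share of windows in percent (y axis) that hold each of 6 motifs within 50 bp of the summit or of its mirror position, for upstream, downstream and centred peaks (bar colours). TATA letters stand at 19.3% of upstream summits against 6.65% of their mirror windows, and the BEAF-32 core stands at 30.4% of centred summits.

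The 5 offset summits with a DRE ranked from 1336 to 3021 of the 3207 peaks, and 4 of them were outside the strongest 1603. Upstream they were at pnr, Hs3st-A, Neurochondrin and Rme-8, and downstream at cnc, the fly homologue of the stress-response factor Nrf2. The peak at pnr, a GATA factor gene of dorsal patterning, had signals of 74.7 and 44.3 in replicates 3 and 4 (ranks 1706 and 2257), and its summit was 106 bp upstream of the TSS in both. The 30 bases around its DRE, chr3R:16026001-16026030 on the plus strand, are shown as the strongest printable upstream example, with the DRE in capitals.
pnr: cccacttttttTATCGATAgcgagtgtgag
The peak at cnc had signals of 71.9 and 75.8 (ranks 1840 and 846). The windows at the TSSs of upstream peaks held the DRE in 9 of 481 cases (1.87%), the Initiator letters TCAGT in 184 (38.3%) and Motif 1 in 18 (3.74%). They held Motif 7 in 6 (1.25%) and CGATA in 88 (18.3%). At the TSSs of the 131 downstream peaks the DRE stood in 6 windows (4.58%), TCAGT in 34 (25.95%) and Motif 1 in 7 (5.34%). Motif 7 stood in 8 of these (6.11%) and CGATA in 29 (22.1%). At the TSSs of upstream peaks the DRE, Motif 7 and CGATA stayed below their shares at centred summits, 4.87%, 4.38% and 30.4%. Motif 1 was near its centred share of 3.89%. At the TSSs of downstream peaks CGATA was below and the DRE near the centred share, and Motif 1 and Motif 7 were above. The shares at these TSSs were not tested against those of centred peaks.

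Gene groups were counted against all annotated genes, of which 2.46% had an upstream and 0.716% a downstream peak of this kind. For protein-coding genes alone the shares were 2.95% and 0.696%. Centred peaks were found at 2.80% of them. The lists are described by counts only, and no list was tested. Of 92 cytoplasmic ribosomal protein genes, 76 had an optimal peak at a start and 35 a centred one. Of these 92 genes 1 (1.09%) had an upstream and 1 (1.09%) a downstream offset peak, near the shares over all genes. RpL35, for a protein of the large subunit, had upstream signals of 65.2 and 49.6 in replicates 3 and 4. RpS18, for a protein of the small subunit, had downstream signals of 78.2 and 16.7, rank 1578 in replicate 3 and 16023 in replicate 4, so only replicate 3 placed it among its strongest. Of 55 translation factor genes 2 were upstream (eIF2beta and eIF4A) and 10 centred.

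Genes of glycolysis and core metabolism had 6 upstream members of 33 (18.2%), none downstream and 2 centred. Gapdh2, for a glyceraldehyde-3-phosphate dehydrogenase, had upstream signals of 244 and 100.1 in replicates 3 and 4 (ranks 152 and 501), from a peak at chrX:15867880-15868109 on the plus strand. Hex-A, the hexokinase gene, had 179 and 102 (ranks 314 and 479). Pgk, for phosphoglycerate kinase, had a pair of upstream peaks at different TSSs, of 128 and 60.5 and of 82.4 and 77.2. Gapdh2, Hex-A and the stronger Pgk peak ranked higher in replicate 3 than in replicate 4. Of 28 heat shock and chaperone genes 2 were upstream, the neighbouring small heat shock genes Hsp26, with 179 and 101.1, and Hsp27, with 98.8 and 63.6. Their summits lay 111 and 170 bp upstream of the TSS, in intergenic DNA, that of Hsp26 in a peak at chr3L:9377480-9377583 on the minus strand.

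Cytoskeleton and adhesion genes had 10 upstream members of 67 (14.9%) and 2 downstream, with 11 centred. The titin-like muscle gene sls had upstream signals of 204 and 119 in replicates 3 and 4 (ranks 230 and 341). Msp300, for a nesprin that anchors nuclei, had 186 and 122 (ranks 275 and 323). The tensin gene by had a pair of upstream peaks, of 171 and 116 and of 129 and 72.8. At all 3 genes the peaks were higher in rank in replicate 3 than in replicate 4. Downstream, the integrin subunit gene if had 59.6 and 57.4, and sqh, for the myosin regulatory light chain, had 55.1 and 31.9.

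Signalling genes had 11 upstream and 4 downstream members of 102 (10.8% and 3.92%), with 10 centred. The gene of the GSK3 kinase, sgg, had upstream signals of 230.1 and 155 in replicates 3 and 4 (ranks 177 and 175). The EGF receptor ligand gene spi had a pair of upstream peaks, the stronger with 177 and 162 (ranks 321 and 160). The kinase gene Src64B had 137 and 62.8 (ranks 554 and 1204). Downstream, Mer, the Merlin tumour suppressor gene of the Hippo pathway, had 92.1 and 86.0 (ranks 1163 and 672). Stat92E, the transcription factor of JAK/STAT signalling, had 88.9 and 51.1, and the kinase gene Pdk1 had 46.5 and 53.1.

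Chromatin regulators had 5 upstream and 2 downstream members of 49 (10.2% and 4.08%), with 4 centred. Both Polyhomeotic genes were among them. The ph-p gene also had a downstream peak at another TSS, with 146 and 128 in replicates 3 and 4, and ph-d, its neighbour and close copy, had an upstream peak of 57.1 and 34.1. Reads shared between these near-identical genes could have been split, so the values of both are uncertain. The CBP acetyltransferase gene nej had upstream signals of 62.2 and 40.7, and kis, for a CHD-type remodeller, had 63.1 and 38.7. The demethylase gene Utx was downstream with 46.7 and 33.6. Trl, which encodes the GAGA factor, was the single downstream insulator and architectural gene, with 156 and 85.1 (ranks 423 and 681).

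Of 82 genes taken as homeobox genes by name, 6 (7.32%) had an upstream and 1 a centred peak, and none a downstream one, as in several other lists. One of the 6, Pax, is the paxillin gene of cell adhesion and holds no homeobox. NK7.1, at chr3R:14373217-14373499 on the minus strand, was the strongest, with signals of 267 and 183 in replicates 3 and 4 (ranks 121 and 125) at 407 bp upstream. The anterior determinant bcd had 123 and 69.9 (ranks 689 and 988). Segmentation and dorsoventral genes had 4 upstream members of 57 (7.02%), bcd, the Wnt ligand gene wg, pnr and shn, and 2 centred ones. At wg the signals were 73.3 and 39.7 (ranks 1765 and 2775). At shn they were 85.8 and 19.4, and rank 11592 in replicate 4 left it outside that replicate's strongest. The summits at bcd, wg and pnr were 53.5%, 61.4% and 51.5% GC, above the upstream median of 34.7%. Those at NK7.1 and Pax were 34.7% and 32.7%, at and below it. These are single genes and do not describe the lists.

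Other groups had few members. Nuclear receptor genes had 2 of 21 upstream, ERR with 90.9 and 55.9 in replicates 3 and 4 and Hnf4 with 84.2 and 54.5. Cell cycle genes had 2 upstream, the E2F partner Dp with 117 and 119 and CycE with 51.7 and 38.5, and 2 downstream, CycK with 36.4 and 59.2 and the CDK inhibitor gene dap with 56.3 and 34.0, of 39. Neural genes had 2 upstream of 41, peb and nerfin-1. Oxidative phosphorylation genes had 2 upstream, blw and Cyt-c-p, and 1 downstream of 89, mitochondrial ribosomal proteins 1 upstream of 73, proteasome subunits 1 upstream of 34, and the polymerase II and general factor list 1 downstream of 65, Taf1. Insulator genes had 1 upstream, row. None of 118 cuticle protein genes and none of 32 aminoacyl-tRNA synthetase genes had an offset peak. Of the 3261 long noncoding RNA genes 33 (1.01%) were upstream and 29 (0.889%) downstream. Of 591 tRNA, snRNA and snoRNA genes 2 were upstream and 4 downstream, among them snRNA:7SKa.

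Several genes had more than 1 offset peak: 36 had 2, dnc had 3, and Rtnl1 and Ptpmeg2 had 4 each. Among the 51 pairs of peaks of 1 gene, 35 were at different TSSs, 15 were on the same side of the same TSS, and 1 pair, at lncRNA:CR44619, faced each other across a TSS. At Ptpmeg2, for a tyrosine phosphatase, 3 upstream peaks at different TSSs had pooled signals of 443, 413 and 343, and 1 downstream peak had 149. At dnc, the cAMP phosphodiesterase gene, the 3 upstream peaks had 439, 301 and 117. The overlapping intervals of 13 pairs had summits 199 to 209 bp apart, and the commonest peak width was 416 bp. At spi the summits were 200 bp apart. Each such peak is counted as deposited, and merging overlapping peaks left 590 members.

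The limits of 100 and 500 bp cut through a continuous range. Just inside the inner limit lay Best1 at 101 bp and kis at 102 bp upstream, and Pdk1 at 104 bp and jvl at 107 bp downstream. Just outside it lay whd at 100 bp and lncRNA:CR44331 at 99 bp upstream, and CG5455 at 97 bp and a second peak of lncRNA:CR44380 at 95 bp downstream. At the outer limit, peb at 498 bp and CG17896 at 499 bp upstream, and CG5854 at 494 bp and CG15247 at 495 bp downstream, were inside. Ugt36D1 at 504 bp and Pino at 506 bp upstream, and Fbl6 at 507 bp and scrib at 509 bp downstream, were outside. Their pooled signals ran from 105 to 339 inside and from 89.1 to 338 outside.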

How the data were processed

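Peak lists in build dm6 were deposited by the authors: a relaxed list per replicate and pooled, and an optimal list from an irreproducible discovery rate (IDR) procedure. The aligner, the caller and the IDR cutoff: not given in the sources used here. The signal column is the authors' value for each peak, on a scale not stated, and was used to rank peaks. The deposited −log10 q-value column holds 1 value throughout the optimal list and was not used. Another deposited column gives the summit's offset. TSSs came from Ensembl release 115 (18164 genes on 6 arms, transposable elements left out) and sequence from RefSeq Release 6. Weaker pooled peaks are those no optimal peak overlaps, from a list labelled as peaks and background. Fisher's exact tests (two-sided) were used for shares and exact McNemar tests for paired motif windows (scipy 1.17.1, Python 3.11.15), Benjamini-Hochberg adjusted, threshold 0.05. Steps were tested on simulated data. The members, the 21 gene lists (10 names unmatched) and the 14 motifs were chosen with earlier results of these data known. Named genes are the 12 strongest per side, the 3 strongest per list, DRE holders, those beside the limits and those with several peaks; 1 of the strongest upstream peaks is not reported here. The comparisons at fixed upstream positions and in weaker peaks' GC were added after seeing the data. Coordinates are 1-based. The dm3 lists were not used here.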

Additional observations from a re-analysis of the deposited data

How the results depend on the processing

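Of 165 values recomputed under 13 alternatives, 143 kept their direction and their side of the threshold, or stayed near the main value. The smaller downstream share than among weaker peaks ran from -41.3 to -33.3 percentage points, and the excess of offset over centred peaks among the strongest 1603 from 11 to 21.03, both past the threshold throughout, as was upstream over downstream (13.8 to 24.3). RefSeq TSSs, added after seeing the data, ended no call. In the stronger part of the list, membership in both replicates reversed for offset minus centred (-0.741) and was weaker for upstream minus downstream (0.258), which was also weaker for summits over 150 bp (8.88). The share of peaks that reach the TSS, upstream minus downstream, moved from -4.42 to -8.65 (over 50 bp) and -14.8 (up to 300 bp), both past the threshold, and reversed to 1.15 over 150 bp and to 2.82 without replicate 3, with a range of -4.39 to 2.82 over the replicates left out. The members numbered 364 in the stronger part of the list, 301 upstream and 63 downstream, by construction. The same-side share was 97.5% (over 50 bp), 99.8% (over 150 bp) and 96.2% (match within 100 bp). Motif counts went from 2 to 6 upstream against the mirror and from 5 to 8 offset against centred with 100 bp windows, and to 3 with 25 bp windows. Without replicate 3, 1 downstream motif passed against the mirror and 1 between upstream and downstream, against 0 in each. In Fisher's exact test of offset against centred, Motif 1 (adjusted p = 0.0631) and Motif 7 (0.225) did not pass with 25 bp windows, nor Motif 7 in the stronger part (0.0603), nor the TATA letters without replicate 3 (0.0769). The cause of these changes was not tested. Peak lists give no read depth, so no limit from depth can be stated.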

Other observations

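The X chromosome held 104 of 481 upstream peaks (21.6%, 18.2 to 25.5%) and 26 of 131 downstream peaks (19.9%, 13.9 to 27.5%), but 46 of 411 centred peaks (11.2%, 8.50 to 14.6%). In the whole optimal list its share was 17.7% (16.4 to 19.04%), which the upstream and downstream intervals overlap and the centred one does not. It carries 15.5% of annotated genes and held 16.0% of the weaker upstream peaks. In 4 equal parts of the optimal list, from the strongest to the weakest, the X share of upstream peaks was 20.4%, 20%, 22.9% and 25%. This was seen in the counts and was not tested.

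Downstream of the TSS, median GC content in the 4 bands of 100 bp was 41.6%, 40.1%, 33.7% and 37.6%, from nearest to farthest. These bands held 53, 20, 27 and 31 summits, of which 7, 5, 9 and 8 were at noncoding RNA genes. Upstream, the 4 bands of 100 bp ran only from 32.7% to 34.7%.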
